A study of Homo sapiens with 2 samples.

Results

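Immune checkpoint ligands are surface proteins and enzymes by which carcinoma cells modulate attack by T cells, natural killer cells and macrophages, mostly restraining it. Lysine lactylation was examined here at 10 genes of this kind in CAL27, an established human line of oral squamous cell carcinoma. The genes were listed by symbol, and every peak region inside each gene or within 20 kb of it was taken. All 10 were found among 20037 protein-coding genes, and their windows held 28 of 43680 regions in the library from untreated cells and 27 of 50352 in the library from cells given 10 mM lactate for 24 hours.

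PD-L1 (CD274) and PD-L2 (PDCD1LG2) bind the receptor PD-1 on T cells, and B7-H3 (CD276) and B7-H4 (VTCN1) belong to the same B7 family. CD47 binds SIRPA on macrophages and restrains phagocytosis. PVR and NECTIN2 bind TIGIT, an inhibitory receptor of T and natural killer cells, and also CD226, an activating one. Galectin-9 (LGALS9) binds TIM-3, TNFSF9 is the ligand of the costimulatory receptor 4-1BB, and IDO1 breaks down tryptophan, which T cells need. Lactylation is the addition of a lactyl group, derived from lactate, to lysine, and on histones it has been linked to active promoters.

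The assay was CUT&Tag, in which an antibody against lactyllysine, whatever protein carries it, guides the transposase pA-Tn5 to tag nearby DNA. With a single library per group, differences have no replicate check and no p-value is printed. Depth was 15696147 tags in the untreated-labelled library and 15120031 in the lactate-labelled library. All summit names, the run name and the input file in each list carry the name of the other sample. The sample labels were kept, and exchanging the lists would swap each pair of values and invert each ratio given here. In the absence of an antibody-free control among the files used, cutting of open chromatin cannot be told apart from antibody signal. Of the marker genes, 2 of 8 squamous, 3 of 8 blood cell and 2 of 4 fibroblast genes had a region within 1 kb of an end in the untreated-labelled library, and 4, 3 and 3 in the lactate-labelled library. Of all protein-coding genes, 43.5% and 49.5% had such a region in the untreated-labelled and lactate-labelled libraries. The marker counts do not identify the cell type.

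Regions lay over the starts of most of these genes, and the DNA under them shows how unlike the promoters are. The stretches below, on GRCh38.p14 from RefSeq, lie before the gene start and inside the regions of both libraries (for PVR, of the lactate-labelled library, which alone had a region there). They were chosen to show the PD-L1 promoter, both CpG-poor promoters, the start marked in 1 library, and a promoter with an interferon response motif inside its region. Capitals mark whole matches to the 6 motifs searched. The stretches are chr9:5450384-5450541 on the + strand, chr1:117210928-117211084 on the - strand, and chr19:44643825-44643909, chr17:27630938-27631187 and chr19:6530830-6531025 on the + strand, each written 5′ to 3′ along the gene.
CD274: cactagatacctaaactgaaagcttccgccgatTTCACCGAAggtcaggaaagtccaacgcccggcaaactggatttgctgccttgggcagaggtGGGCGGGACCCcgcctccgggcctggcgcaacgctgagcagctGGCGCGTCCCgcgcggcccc
VTCN1: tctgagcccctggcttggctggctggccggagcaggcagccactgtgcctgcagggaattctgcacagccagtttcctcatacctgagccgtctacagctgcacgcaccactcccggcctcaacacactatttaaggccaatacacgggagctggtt
PVR: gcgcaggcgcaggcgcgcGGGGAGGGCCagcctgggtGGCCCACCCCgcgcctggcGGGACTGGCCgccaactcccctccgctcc
LGALS9: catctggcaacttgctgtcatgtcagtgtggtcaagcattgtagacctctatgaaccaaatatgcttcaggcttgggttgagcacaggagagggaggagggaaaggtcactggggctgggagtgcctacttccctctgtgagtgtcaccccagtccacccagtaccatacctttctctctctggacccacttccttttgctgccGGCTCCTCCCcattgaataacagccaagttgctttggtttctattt
TNFSF9: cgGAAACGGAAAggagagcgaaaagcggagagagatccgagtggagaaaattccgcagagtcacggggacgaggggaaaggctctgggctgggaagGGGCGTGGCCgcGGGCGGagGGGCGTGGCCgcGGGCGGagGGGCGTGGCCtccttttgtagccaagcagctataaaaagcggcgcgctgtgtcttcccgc

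The motifs were searched on both strands in the 250 bases before the start of 22199 promoters of protein-coding genes, 9 of them belonging to 8 members. A match is a description of letters, not a bound site. The interferon response motif was in 2.71% of all promoters and in those of CD274 and TNFSF9. In CD274 it occurred at 208 and 202 bases before the start, as overlapping matches that lie outside the regions of both libraries, and in TNFSF9 at 194 bases before the start, inside both. The STAT motif, TTCNNNGAA, was in 5.92% of all promoters and, among the members, in CD274, at 125 bases before the start and inside both regions. The AP-1 motif, TGANTCA, was in 5.36% of all promoters and in 0 of the 9 of the members. The loose NF-kappaB motif was in 62.5% of all promoters and in 8 of the 9, with VTCN1 the exception. The GC box, GGGCGG, was in 53.7% and in 6 of the 9, and can overlap the NF-kappaB motif. The core of the hypoxia response motif, ACGTG, was in 20.2% and in 2 of the 9, in CD47 and in the second CD276 promoter.

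A region is a stretch that MACS2 called in 1 library, its pileup is the number of tags stacked at the summit, and its fold enrichment is the pileup over the local background with 1 added to both. Both values are the authors' own. Bracketed ranges after a pileup are 95% exact Poisson intervals, and those after a ratio are the matching exact binomial intervals. Both cover counting error only, since tags are not independent molecules. Regions of both libraries that overlap by 1 bp or more are called shared, and a region in 1 library alone was not called in the other, which does not mean that the other held no tags there. Coordinates are on hg38, and the annotation used gives genes but no exons.

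**Figure D1:**
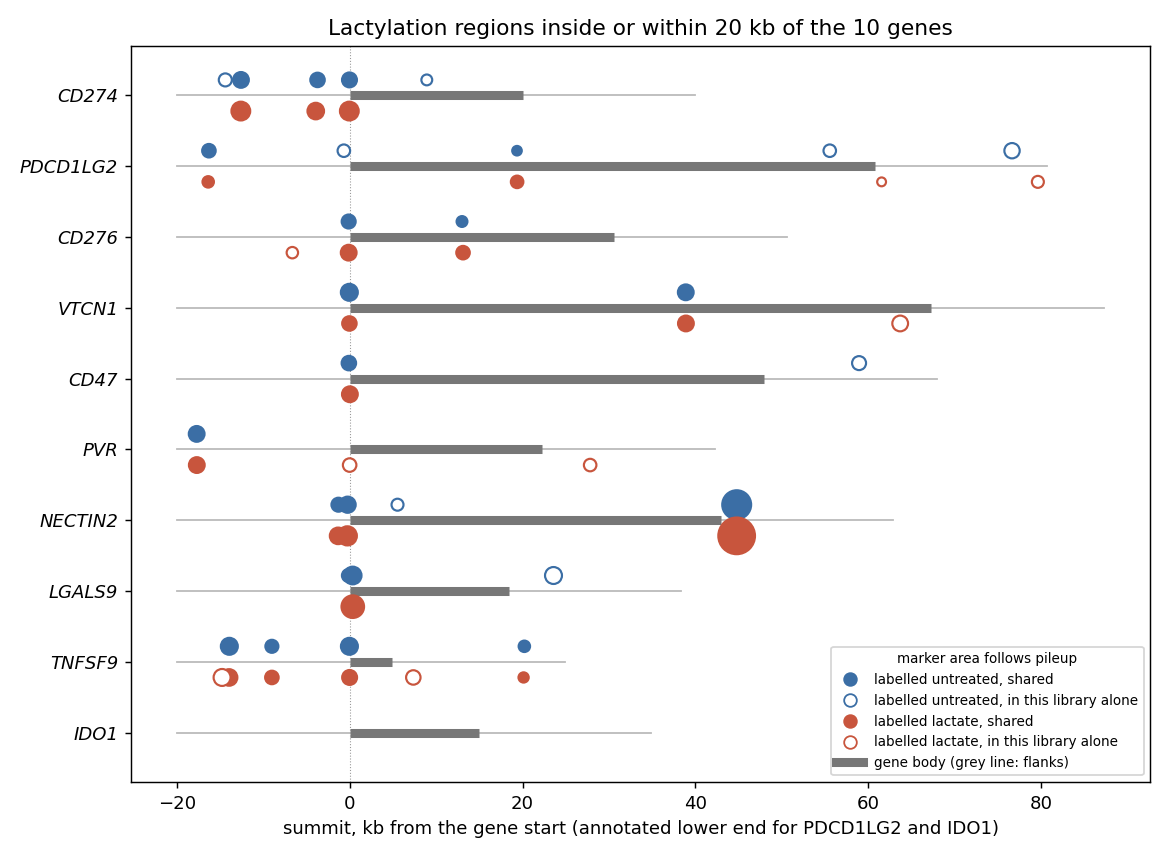
Summits of every region inside or within 20 kb of the 10 genes, by distance in kb from the gene start (x axis) and gene (y axis). Blue circles are the untreated-labelled library and red the lactate-labelled library, filled where shared and open where called in 1 library alone, with area following the pileup. Filled pairs stand at or near the start of CD274, CD276, VTCN1, CD47, NECTIN2, LGALS9 and TNFSF9, PVR has an open red circle there, and the IDO1 line is empty.

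Of the 10 genes, 9 had at least 1 region inside or within 20 kb in each library, where 81% of protein-coding genes did so in the untreated-labelled library and 83.9% in the lactate-labelled library. Within 1 kb of either gene end, 8 members had a region in the untreated-labelled library and 9 in the lactate-labelled library, against 43.5% and 49.5% of all protein-coding genes. PVR was the member marked in the lactate-labelled library alone, as were 9.7% of all genes, 8 members were marked in both, as were 39.8%, and 0 members were marked in the untreated-labelled library alone, as were 3.74%. Of the 8 genes with a promoter of 300 bases in the RefSeq table, 6 were overlapped there in the untreated-labelled library and 8 in the lactate-labelled library, against 40.2% and 46.1% of 15843 genes. The CD276 overlap in the latter was 13 bases.

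Sharing was near that of the genome. In the untreated-labelled library 20 of 28 regions were shared (71.4%, exact Clopper-Pearson interval 51.3 to 86.8) and in the lactate-labelled library 19 of 27 (70.4%, interval 49.8 to 86.2), where 73.4% and 61.5% of the regions near any protein-coding gene were. This left 8 regions in each library alone. Nearest to the 20 kb limit, on its inner side, was a lactate-labelled region 18.8 kb from PDCD1LG2 with a fold enrichment of 4.26, and on its outer side a lactate-labelled region 21.2 kb from VTCN1 with 5.33. Median fold enrichment of the member regions was 4.26 in the untreated-labelled library and 4.70 in the lactate-labelled library, below the 4.63 and 4.87 of all regions. Shared regions formed 19 loci, since a pair of regions at LGALS9 met 1 in the other library.

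CD274 carried 3 shared loci before or at its start, and the pileup at each was the higher in the lactate-labelled library. Of all 30057 shared loci on nuclear chromosomes, 71.4% were also higher there after scaling for depth. The region over the start, chr9:5450384-5450636 in the untreated-labelled library and chr9:5450363-5450607 in the lactate-labelled library, overlapped by 224 bp, and its summits lay 43 and 61 bp before the start. Its pileup was 17 (9.90 to 27.2) and 27 (17.8 to 39.3), with fold enrichments of 4.25 and 5.65. Scaled for depth, the ratio of lactate to untreated was 1.65 (0.867 to 3.22), an interval that includes 1.

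The next CD274 region stood 3.74 kb before the start at chr9:5446503-5446899, with a pileup of 16 and a fold enrichment of 3.99. Its partner, chr9:5446473-5446910, had 21 and 4.76, a ratio of 1.36 (0.677 to 2.79), and covered the former whole, over 397 bp. Their summits lay 206 bp apart, so these pileups were counted at different positions. The outermost, chr9:5437820-5438038, lay 12.6 kb before the start, over the start of the neighbouring gene PLGRKT, with a pileup of 19 and a fold enrichment of 4.48. Its partner, chr9:5437763-5438038, had 27 and 5.65, a ratio of 1.48 (0.790 to 2.81). The 3 intervals all include 1, and the local background was 1.15 to 1.27 times as high at these loci in the lactate-labelled library.

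A further pair of CD274 regions was called in the untreated-labelled library alone. These were chr9:5435998-5436216 in PLGRKT, with a pileup of 13 and a fold enrichment of 3.38, and chr9:5459348-5459547 inside CD274 and the overlapping noncoding gene INCR1, with 9 and 3.79. Of the untreated-labelled library's regions of like strength (fold enrichment within 10% and pileup within 20%), 59.3% and 45.9% were shared. The lowest pileups called in the lactate-labelled library at like local background (within 10%, scaled for depth) were 10 and 7, below the 13 and 9 here.

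PDCD1LG2, which follows CD274 on chromosome 9, had more distant and fewer shared regions. Its strand is not in the promoter table, so positions are given from its lower and upper ends. The locus inside the gene, chr9:5529797-5530188 against chr9:5529781-5530234, had pileups of 7 (2.81 to 14.4) and 12 (6.20 to 21.0), fold enrichments of 3.92 and 5.51, and an overlap of 392 bp. Its ratio was 1.78 (0.646 to 5.34). The other shared locus stood 16.3 kb below the lower end, chr9:5493967-5494392 against chr9:5494007-5494435, over 386 bp. There the pileup was 14 and 10, the fold enrichment 5.91 and 4.70, and the ratio 0.742 (0.295 to 1.79). The direction thus differed between these loci, and both intervals include 1.

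Both libraries had a region within 1 kb of an end of PDCD1LG2, but at opposite ends. The untreated-labelled library had chr9:5509581-5510181 below the lower end, with a pileup of 12 and a fold enrichment of 4.28, and the lactate-labelled library chr9:5572046-5572245 beyond the upper end, with 6 and 3.10, among the weakest 5% of its list. Also in the untreated-labelled library alone were chr9:5566013-5566212 inside the gene (12 and 5.16) and chr9:5587104-5587314, 15.9 kb beyond the upper end. The latter had a pileup of 18 and a fold enrichment of 6.13, and 91.4% of regions of like strength in that library were shared. The lactate-labelled library alone had chr9:5590049-5590248 (11 and 4.26), 2.74 kb from it. All regions of this gene lay in INCR1, which spans it.

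CD276 was marked just before its annotated lower end in both libraries at almost the same place. Regions chr15:73683713-73684065 and chr15:73683712-73684145 overlapped by 353 bp, with summits 2 bp apart, pileups of 15 (8.40 to 24.7) and 19 (11.4 to 29.7), fold enrichments of 3.62 and 4.17, and a ratio of 1.31 (0.633 to 2.78). Inside the gene, chr15:73696765-73697351 and chr15:73696949-73697236 had pileups of 9 and 14 and fold enrichments of 2.87 and 4.14. The former was the weakest member region of its library. Their ratio was 1.61 (0.651 to 4.23). The lactate-labelled library alone had chr15:73677128-73677327, 6.66 kb before the gene, with a pileup of 10 and a fold enrichment of 4.07.

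VTCN1 had the strongest enrichments among the members outside a neighbour's promoter in the untreated-labelled library, and the pileup at its start was the lower in the lactate-labelled library. Over the start stood chr1:117210821-117211349 and chr1:117210846-117211084, overlapping by 239 bp, with summits 59 and 52 bp before it. The pileup was 22 (13.8 to 33.3) in the untreated-labelled library and 16 (9.15 to 26.0) in the lactate-labelled library, with fold enrichments of 7.47 and 5.15. Its ratio was 0.755 (0.371 to 1.5), which includes 1. Inside the gene, chr1:117171829-117172209 and chr1:117171804-117172212 had a pileup of 19 each, fold enrichments of 7.69 and 6.71, and a ratio of 1.04 (0.520 to 2.07).

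The lactate-labelled library alone had chr1:117146912-117147342 near the far end of VTCN1, with a pileup of 19 and a fold enrichment of 6.67, the highest of the 8 member regions in that library alone. In that library 85.2% of regions of like strength were shared. The untreated-labelled library had its nearest region 24.5 kb away, and called regions from a pileup of 8 at like background.

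CD47 was marked at its start in both libraries, with little else nearby. The regions chr3:108091027-108091267 and chr3:108090811-108091267 overlapped by 241 bp, the whole of the former. Pileups were 16 (9.15 to 26.0) and 19 (11.4 to 29.7), fold enrichments 4.4 and 4.85, and the ratio 1.23 (0.6 to 2.56). The summit lay 115 bp before the start in the untreated-labelled library and 4 bp inside the gene in the lactate-labelled library. The untreated-labelled library alone had chr3:108031959-108032203, 11.0 kb beyond the far end, with a pileup of 15 and a fold enrichment of 5.13.

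PVR was the member whose start was called in the lactate-labelled library alone. There chr19:44643825-44644840 covered 1016 bp from before the start into the gene, with 3 summits, a pileup of 14 (7.65 to 23.5) and a fold enrichment of 3.93. It was the longest member region of either library. Of regions of like strength in that library, 44.6% were shared. The lowest pileup called in the untreated-labelled library at like background was 10, below the 14 here. The lactate-labelled library alone also had chr19:44671638-44671837 in CEACAM19, 5.57 kb beyond the far end, with 12 and 3.92. Shared was chr19:44626023-44626334 with chr19:44626012-44626349, 17.7 kb before the start and in IGSF23. Its pileup was 19 in both libraries, with fold enrichments of 5.18 and 5.46 and an overlap of 312 bp. The ratio was 1.04 (0.520 to 2.07).

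NECTIN2, the other TIGIT ligand gene, had its start and upstream flank marked in both libraries. Just before the start stood chr19:44845853-44846302 and chr19:44845621-44846220, overlapping by 368 bp, with pileups of 20 (12.2 to 30.9) and 28 (18.6 to 40.5) and fold enrichments of 4.23 and 5.49. Further out were chr19:44844796-44845292 and chr19:44844768-44845082, with 15 and 21 tags and fold enrichments of 3.28 and 4.35. Both loci had a ratio of 1.45, with intervals of 0.790 to 2.72 and 0.714 to 3.03. Inside the gene the untreated-labelled library alone had chr19:44851672-44851871, with a pileup of 11 and a fold enrichment of 3.66.

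The strongest locus in any of the 10 windows lay 1.87 kb beyond the far end of NECTIN2, over the start of TOMM40, which encodes a channel of mitochondrial protein import. Regions chr19:44890438-44891315 and chr19:44890438-44891309 had pileups of 64 (49.3 to 81.7) and 103 (84.1 to 124.9) and fold enrichments of 9.23 and 11.3. The ratio was 1.67 (1.21 to 2.32), the only one of the 19 whose interval leaves out 1. The local background there was also 1.41 times as high in the lactate-labelled library, and its part in the difference was not tested. With that background removed the ratio was 1.70, but calling used no control, so the background comes from each library's own tags.

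LGALS9 had the highest fold enrichment at a member's own end in the lactate-labelled library. Its copies LGALS9B and LGALS9C share much of its sequence, and how reads were divided among the copies was not tested. The untreated-labelled library had chr17:27630917-27631208 before the start (13 tags, fold enrichment 3.21) and chr17:27631371-27631646 just inside the gene (24 tags, interval 15.4 to 35.7, fold enrichment 5.81). The lactate-labelled library had a single region over both, chr17:27630875-27631662, with 2 summits, a pileup of 39 (27.7 to 53.3) and a fold enrichment of 7.78. The ratio was 1.69 (0.989 to 2.93), and its interval just includes 1. The untreated-labelled library alone had chr17:27654623-27654871 in the pseudogene NOS2P1, 5.21 kb beyond LGALS9, with 22 and 5.13. In that library 91.0% of regions of like strength were shared.

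TNFSF9, the shortest of the genes, had 4 regions in the untreated-labelled library and 6 in the lactate-labelled library, the most of any member in the latter. Over the start stood chr19:6530820-6531215 and chr19:6530830-6531136, overlapping by 307 bp, with pileups of 22 (13.8 to 33.3) and 17 (9.90 to 27.2), fold enrichments of 5.00 and 4.23, and a ratio of 0.802 (0.400 to 1.58). Before the gene were chr19:6521849-6522048 and chr19:6521849-6522056 (pileups 13 and 14, fold enrichments 3.33 and 3.77, ratio 1.12) and chr19:6516985-6517359 and chr19:6516924-6517210 (22 and 21, 4.18 and 4.31, ratio 0.991). Beyond it were chr19:6551027-6551334 and chr19:6550950-6551256 (10 and 8, 3.96 and 3.66, ratio 0.830). None of the 4 shared loci of TNFSF9 reached a ratio of 1.5, and the interval of each includes 1.

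A pair of TNFSF9 regions was called in the lactate-labelled library alone. One, chr19:6516136-6516605, had a pileup of 22 and a fold enrichment of 4.77 and lay 0.38 kb from a region of the untreated-labelled library. The other, chr19:6538226-6538529, stood 2.45 kb beyond the gene with 16 and 4.52.

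IDO1 had no region inside or within 20 kb in either library, and is the member outside the 81% and 83.9% of protein-coding genes that had one. The nearest was chr8:40172820-40173068, 244.0 kb away with a pileup of 9, in the former, and chr8:40059663-40059880, 130.9 kb away with a pileup of 12, in the latter.

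**Figure D2:**
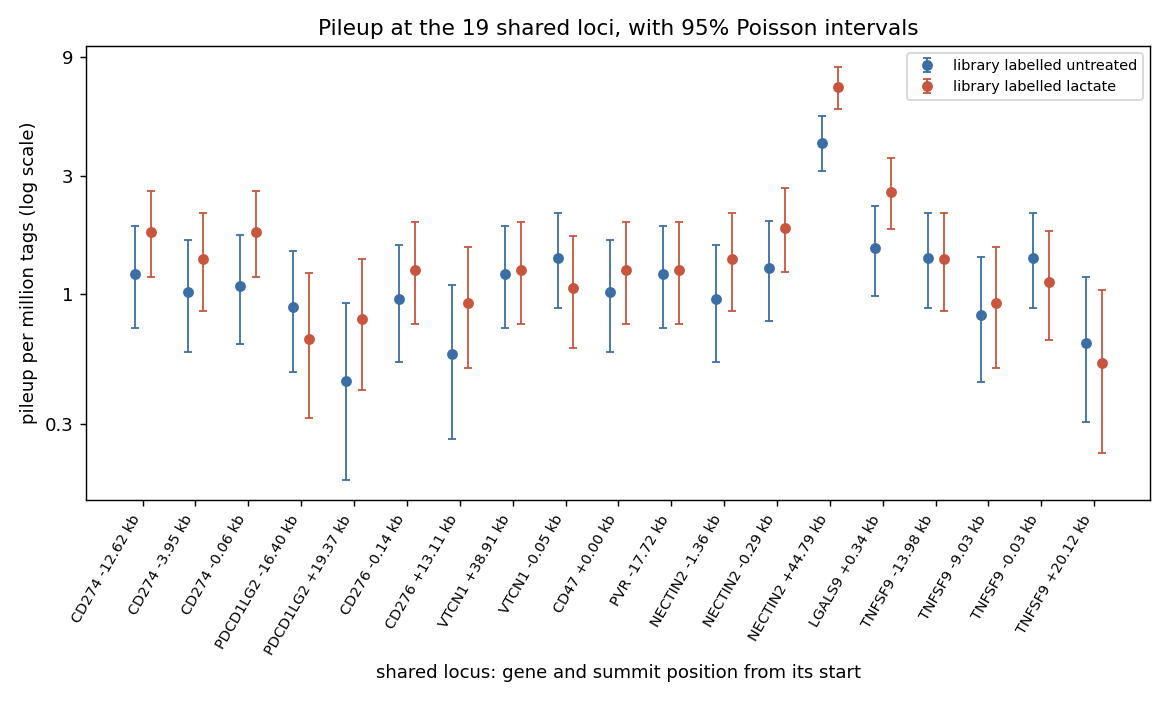
Pileup scaled to the library's total tags (y axis, log scale) at the 19 loci shared by the libraries (x axis, gene and summit position from its start), with 95% Poisson intervals as bars. Intervals of the libraries overlap at 18 of the 19 loci, and the locus 44.8 kb from the start of NECTIN2, over TOMM40, stands above the rest with pileups of 64 and 103.

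Pileup ratios at the members were then set beside those of the whole series. Over all 30057 shared loci on nuclear chromosomes the median depth-scaled ratio was 1.18 (quartiles 0.964 and 1.44), so that values near it are no change relative to the genome. Over the 19 member loci it was 1.31 (quartiles 1.01 and 1.54). A ratio of at least 1.5 was reached by 5 member loci, at CD274, PDCD1LG2, CD276, NECTIN2 (over TOMM40) and LGALS9, and by 20.3% of all loci. The ratio varied with the pileup. Of shared loci with an untreated-labelled pileup within 10% of theirs, 11.0%, 30.7%, 28.5%, 1.89% and 6.48%, in that order, had as high a ratio. A ratio of at most 1/1.5 was reached by 0 member loci and by 2.92% of all. The counting interval lay above 1 at 1 of 19, against 5.04% of all loci, and below 1 at 0, against 0.176%. The local background was itself higher in the lactate-labelled library, by a median factor of 1.08 over all loci and 1.13 over the members. With the background, which comes from each library's own tags, removed from the pileups the medians were 1.19 and 1.36.

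**Figure D3:**
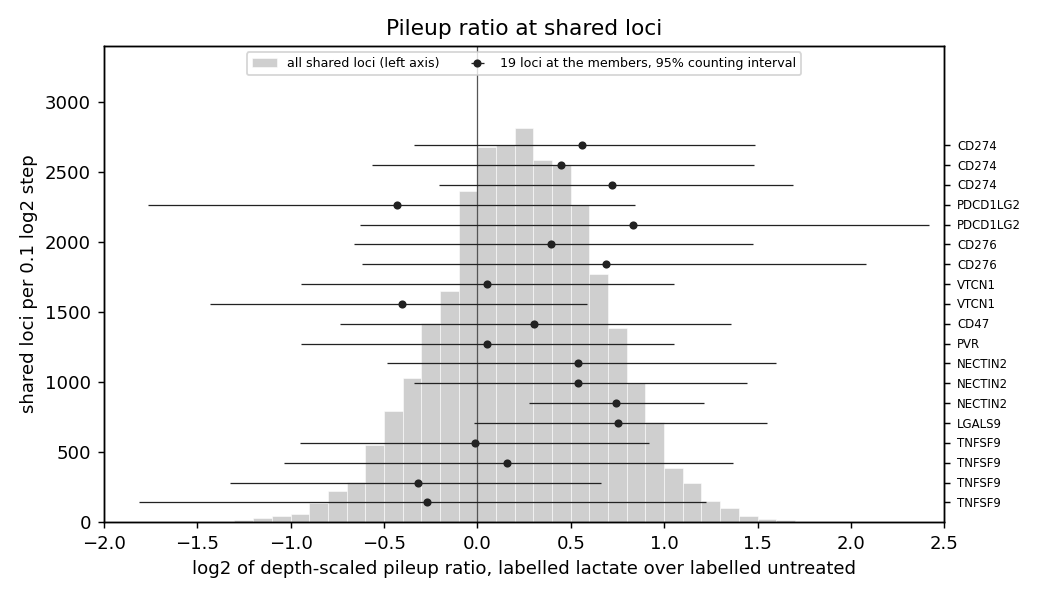
Depth-scaled pileup ratio of the lactate-labelled library over the untreated-labelled library, on a log2 axis. Grey bars count all 30057 shared loci per step (left axis), and black points with 95% counting intervals are the 19 loci at the members (named at right). All member points lie inside the grey spread, and the interval of 1 point, the NECTIN2 locus over TOMM40, leaves out 0.

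The promoters of the members differed in CpG density, which went with how often promoters were marked. The 250 bases before the start of LGALS9 held 0.4 CpG per 100 bases, as few as or fewer than all but the lowest 8.45% of promoters, and those of VTCN1 held 2.4. Of promoters with at most 2 CpG per 100 bases, 5.72% were overlapped by a region in the untreated-labelled library and 6.93% in the lactate-labelled library. In the class over 2 to 4, which holds VTCN1, 19.2% and 22.6% were. Both genes were overlapped in both libraries. The other promoters of the members held 6.4 to 15.6 CpG per 100 bases, the lowest being CD274, which equalled the median of all promoters, and the highest CD47. In the 3 classes over 6 CpG per 100 bases, 44.0% to 54.7% of promoters were overlapped in the untreated-labelled library and 53.1% to 61.6% in the lactate-labelled library.

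**Figure D4:**
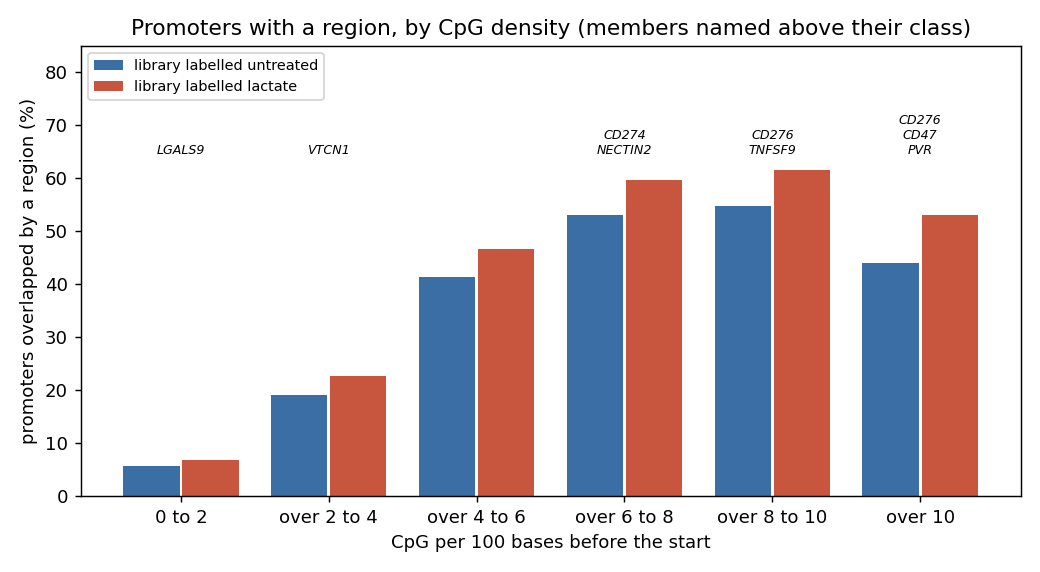
Share of promoters of protein-coding genes overlapped by a region (y axis, percent) by class of CpG per 100 bases before the start (x axis), in the untreated-labelled library (blue) and labelled lactate (red). Members are named above their class, once for each promoter. LGALS9 stands in the class with the lowest shares, 5.72% and 6.93%.

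Of 70 other genes of checkpoint signalling and immune evasion, 30 had a region at an end in each library (42.9%), 28 of them in both, against 43.5% and 49.5% of all protein-coding genes. Gene-end windows of neighbours can share a region. Ligands for natural killer cell receptors were marked in 6 and 5 of 7, among them the stress ligand genes ULBP3 (fold enrichment 4.86 in the untreated-labelled library and 5.70 in the lactate-labelled library) and ULBP1 (5.08 and 4.28). MICB, another stress ligand gene with a close copy in MICA, was marked in the untreated-labelled library alone (4.27). Among 14 regulators of the ligands, 9 and 8 were marked. SPOP, which encodes a ubiquitin ligase adaptor that acts on PD-L1, had 10.2 and 10.5, and the interferon signalling kinase gene JAK2 had 5.85 and 8.02.

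Immune cell receptors, the binding partners of these ligands, were marked in 2 of 14 in each library. These were LAG3 (5.63 and 5.75) and KLRK1 (4.35 and 3.97), while the receptor genes PDCD1, TIGIT, CTLA4, SIRPA and TNFRSF9 had no region at an end. Genes of metabolic evasion were marked in 4 of 8 in each library, with PTGS2, the prostaglandin synthase gene, at 6.55 and 10.2 and ENTPD1, which encodes the ATP-degrading enzyme CD39, at 7.89 and 8.89. IDO2 and TDO2, which act on tryptophan as IDO1 does, had no region at an end in either library.

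In the B7 and butyrophilin group 2 and 3 of 8 were marked. BTN2A2 had 6.30 and 7.55, VSIR, which encodes the checkpoint protein VISTA, had 3.88 and 4.28, and HHLA2 was marked in the lactate-labelled library alone (3.74). Among 4 nectins and related genes 2 and 3 were, with NECTIN1 at 4.82 and 4.05, NECTIN3 at 3.63 and 3.72, and NECTIN4 in the lactate-labelled library alone (2.73). TNF superfamily ligand genes were marked in 2 of 7 in each, TNFSF15 (7.38 and 6.47) and TNFSF10, the TRAIL gene (4.75 and 3.94). Other inhibitory ligands were marked in 3 of 8 in each, with HMGB1 at 5.96 and 4.84 and the galectin-1 gene LGALS1 at 4.96 and 5.19.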

How the data were processed

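The submitters' processing notes name MACS2 2.1.0, BWA, fastp 0.20.0 and hg38. Calling was done per library, per the file headers, by MACS version 2.1.0.20150420 without a control, at a q threshold of 0.05, a shift of -100 and an extension of 200 bp. The authors' deposited lists give a pileup, a signal counted in tags without depth scaling, and a fold enrichment, the ratio of pileup to local background after adding 1 to each. From these the background and a Poisson −log10 p were recomputed. Summits with the same start and end were collapsed to the summit of highest fold. Overlapping regions of both libraries formed a locus, and its highest pileup in each, divided by the tags, gave the ratio. Genes and promoters came from RefSeq tables for GRCh38.p14. The promoter table matched 8 of 10 members, without PDCD1LG2 and IDO1.

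The members, gene lists and motifs were chosen with earlier results of these data known. All members were named, with every region. Of each role of the wider list, the 2 genes of highest fold enrichment at an end in either library were named, with every gene marked in 1 library alone, and receptors or enzymes paired with a member were named after their values were seen. One result that this rule names is not reported here. Marker lists are given as counts. The alternatives were stricter thresholds, lists of equal length, other windows and overlaps, all summits and background removal. Overlap, window and interval code was tested on simulated data and against bedtools 2.31.1. The tools were matplotlib 3.10.9, SciPy 1.17.1, numpy 2.4.6, pandas 2.3.3 and Python 3.11.15.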

Additional observations from a re-analysis of the deposited data

How the results depend on the processing

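No paired analysis was possible because each group has 1 library, and for the same reason no replicate could be left out. Of 47 recomputed values 26 stayed within the limits set for them, 21 moved and 0 reversed. Most of these values are counts or percentages, which have no direction to reverse, so the 0 says nothing about them. Only the median pileup ratio of the member loci could reverse, and it stayed above 1 at each setting tried, the lowest being 1.04. In the order untreated then lactate, the regions near the 10 genes numbered 28 and 27. Requiring a fold enrichment of 5 or more left 11 and 10. They fell to 11 and 10 with 21840 strongest regions from each list, and to 18 and 17 within 5 kb, and rose to 48 and 49 within 50 kb. At a −log10 p of at least 7 they were 17 and 18, of which the former moved. The percentage of the untreated library's regions that were shared fell from 71.4 to 45.5 at the fold threshold and to 45.5 with equal lists. Members with a region at an end fell from 8 and 9 to 3 and 4 at the fold threshold and to 3 and 4 with equal lists. The median pileup ratio of the member loci fell from 1.31 to 1.04, over 5 loci, at the fold threshold and to 1.04 with equal lists. Genes of the wider list marked at an end fell from 30 and 30 to 14 and 15 at the fold threshold, and to 19 and 14 with equal lists. The share of all protein-coding genes was not computed at these settings. Whether the members' higher share at gene ends holds there is therefore not known. Keeping fewer regions or changing the length searched alters the counts by construction. Why the shared percentage and the median ratio moved was not tested, and neither was recomputed for the whole series at these settings. At the members' shared loci other than that over TOMM40, pileups were 7 to 39 tags and ratios 0.742 to 1.78. The interval of each of those ratios included 1, so no difference was detected there. With so few tags, the intervals were wide. Over TOMM40, with 64 and 103 tags, the interval of the ratio of 1.67 left out 1.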
